A study of Mus musculus with 6 samples.

Results

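The SMAD1/5 and SMAD2 chromatin immunoprecipitates of R1 mouse embryonic stem cells were compared probe by probe on the promoter arrays that carried both. R1 is a mouse embryonic stem cell line. It was grown here without feeder cells, in medium with leukemia inhibitory factor and knockout serum replacement, and the cells were undifferentiated, so no group had a treatment that another lacked. Chromatin was crosslinked with formaldehyde, and DNA was collected with antibodies to SMAD1/5, to SMAD2 or to SMAD4. Each immunoprecipitate was hybridised in the red channel against its own whole cell extract input in the green channel, on an Agilent mouse promoter set of 2 array designs, so every antibody had 2 arrays. Array 1 held chromosomes 1 to 8 and a stretch of chromosome 9, and array 2 the remainder of chromosome 9 through chromosome 19, X and Y. The comparison takes 4 of the 6 samples, the 2 SMAD1/5 arrays and the 2 SMAD2 arrays, chosen by antibody and matched by design. It uses the probes that carried no outlier flag and were well above background in both immunoprecipitates, 424551 of 474380. The SMAD4 arrays entered only as a further level beside the values. There was 1 array for each antibody and design, so no difference below has a replicate check and none was tested.

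SMAD1 and SMAD5 are phosphorylated by the receptors of bone morphogenetic proteins (BMPs), and SMAD2 by the receptors of Activin, Nodal and TGF-beta. Both groups then join SMAD4, enter the nucleus and bind DNA with partner factors. In mouse embryonic stem cells BMP signalling is known for its induction of the Id genes beside leukemia inhibitory factor, and Nodal and Activin signalling for the induction of Lefty1, Lefty2 and other feedback and mesendoderm genes.

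The difference of a probe is its log2 red signal with SMAD1/5 minus that with SMAD2, each set to 0 at the median of its array, so a positive value means relatively more signal with SMAD1/5. A window is the mean over all probes within 500 bp of a probe, with at least 3 probes. It is called higher with one antibody when the mean differs by at least 1 on the log2 scale, which is 2-fold, and every probe in it lies on that side of 0. The ± of a window or gene is the SD over its probes, which are not replicates of the experiment. Positions are those of the array annotation, and the sources used here do not give their genome build.

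The data kept 90.2% of the probes on array 1 and 88.8% on array 2. The red signal was a median of 5.80 and 6.68 times background on the SMAD1/5 arrays and 15.3 and 15.8 times on the SMAD2 arrays, so the SMAD1/5 side was measured closer to its background. Across the kept probes the 2 immunoprecipitates correlated at Pearson r = 0.57 on array 1 (214020 probes) and 0.56 on array 2 (210531 probes). SMAD4 correlated at 0.62 and 0.59 with SMAD1/5 and at 0.78 and 0.77 with SMAD2. The inputs of the SMAD1/5 and SMAD2 arrays correlated at only 0.45 and 0.49 with each other. The difference between the immunoprecipitates correlated at 0.40 and 0.37 with the difference between those inputs. These correlations are across probes of the same arrays, which share probe sequence and labelling and are not independent. Input differences are given below for many of the windows, and the part of the inputs in the results was not tested.

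Promoters of 5 genes are shown because a called window lay at their start sites. Nodal encodes the ligand itself, Gsc is a homeobox gene of the organizer and a Nodal target, and Chrd encodes the BMP antagonist chordin. Their windows were higher with SMAD2. Gata3, a transcription factor of the trophectoderm and a BMP target, and Bmp10, a BMP ligand, had windows that were higher with SMAD1/5. The sequences are from RefSeq, build GRCm38.p6, and each runs from 250 bases before to 50 bases after the start. Nodal lies at chr10:61417722-61418021 on the plus strand, Gsc at chr12:104473187-104473486 on the minus strand, Chrd at chr16:20732877-20733176 on the plus strand, Gata3 at chr2:9878551-9878850 on the minus strand and Bmp10 at chr6:87428744-87429043 on the plus strand. Capitals mark matches, on either strand, to 4 motifs. GTCTAGAC is the palindromic SMAD box and was found in 0.211% of 27025 promoters, 1 per gene. CAGACA, which holds the SMAD box core, was found in 21.0%, GGCGCC, a GC-rich SMAD motif, in 11.96% and AATCCACA, a FOXH1 motif, in 0.873%.
Nodal: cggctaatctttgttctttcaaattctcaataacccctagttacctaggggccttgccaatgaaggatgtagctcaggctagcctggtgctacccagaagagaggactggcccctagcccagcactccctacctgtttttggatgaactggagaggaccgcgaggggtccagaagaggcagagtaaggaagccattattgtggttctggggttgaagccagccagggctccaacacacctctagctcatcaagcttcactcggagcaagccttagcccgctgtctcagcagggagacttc
Gsc: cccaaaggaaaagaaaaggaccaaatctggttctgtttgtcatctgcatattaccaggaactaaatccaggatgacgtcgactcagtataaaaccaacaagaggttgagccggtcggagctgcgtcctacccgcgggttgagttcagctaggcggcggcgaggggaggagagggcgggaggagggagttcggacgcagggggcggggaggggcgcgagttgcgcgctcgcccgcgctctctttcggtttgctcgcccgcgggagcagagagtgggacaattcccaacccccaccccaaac
Chrd: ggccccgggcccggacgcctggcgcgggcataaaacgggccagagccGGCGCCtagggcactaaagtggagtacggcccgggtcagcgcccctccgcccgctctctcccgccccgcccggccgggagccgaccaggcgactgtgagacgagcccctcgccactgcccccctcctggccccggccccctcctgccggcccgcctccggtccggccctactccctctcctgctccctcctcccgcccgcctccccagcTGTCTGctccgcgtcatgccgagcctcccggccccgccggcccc
Gata3: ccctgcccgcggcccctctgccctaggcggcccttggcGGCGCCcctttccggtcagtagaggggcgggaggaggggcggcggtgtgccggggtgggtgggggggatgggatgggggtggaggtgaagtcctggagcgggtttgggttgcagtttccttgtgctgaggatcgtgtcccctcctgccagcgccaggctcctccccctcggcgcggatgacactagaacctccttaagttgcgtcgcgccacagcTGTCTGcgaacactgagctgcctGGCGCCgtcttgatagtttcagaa
Bmp10: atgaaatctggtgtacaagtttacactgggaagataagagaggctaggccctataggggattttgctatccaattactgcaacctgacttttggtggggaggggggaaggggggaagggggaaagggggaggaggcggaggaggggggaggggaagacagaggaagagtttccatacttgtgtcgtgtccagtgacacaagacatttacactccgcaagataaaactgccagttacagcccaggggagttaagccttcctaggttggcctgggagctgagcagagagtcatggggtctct
The promoters of Nodal, Gsc and Bmp10 held none of the 4 motifs. Chrd held 1 GGCGCC and 1 CAGACA, and Gata3 held 2 GGCGCC and 1 CAGACA. A match is only a run of letters, and its absence says nothing about binding. The windows at Gata3 and Bmp10 were centred 491 and 493 bp upstream of the start by the array annotation, outside the stretch shown.

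Across all promoters, called windows were more often higher with SMAD2 than with SMAD1/5. Of 371354 windows, 38595 (10.4%) were higher with SMAD2 and 18023 (4.85%) with SMAD1/5. The shares were 8.95% and 4.75% on array 1 and 11.9% and 4.96% on array 2. They formed 14183 and 7986 separate regions with median lengths of 793 and 697 bp. Of 16366 genes with a window, 9600 (58.7%) had at least 1 that was higher with SMAD2, 6358 (38.8%) at least 1 that was higher with SMAD1/5, and 3187 (19.5%) had both. A call for a gene was thus common, and 3595 genes (22%) had none. The split depended on scale. With the median difference of each array set to 0, a choice made after the values were seen, 8086 genes were higher with SMAD1/5 and 7865 with SMAD2. The corresponding counts were 7749 and 7331 after a lowess fit on mean signal, 7746 and 7860 after quantile normalization, and 5463 and 1859 with normexp background correction.

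In the windows that were higher with SMAD1/5, the median level was 0.72 with SMAD1/5, -0.81 with SMAD2 and -0.42 with SMAD4. In those that were higher with SMAD2, it was -0.99 with SMAD1/5, 0.61 with SMAD2 and 0.20 with SMAD4. SMAD4 was not used to call the windows, and its level lay nearer to SMAD2 in 81.0% of the first set and 73.5% of the second, against 63.0% of all windows. The same order held on array 1 (80.0%, 74.7% and 63.3%) and on array 2 (82.0%, 72.5% and 62.7%). The calls choose windows with a large difference between SMAD1/5 and SMAD2. The log2 signal spread more across probes with SMAD1/5 (SD 1.72 and 1.59) than with SMAD2 (1.43 and 1.42). The part of this choice and spread in the SMAD4 shares was not tested. SMAD4 signals were not filtered for flags or background.

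The inputs moved with the calls in both directions. Over all windows the input difference, SMAD1/5 minus SMAD2, had a median of 0.44. The input of the SMAD1/5 array was higher by a median of 1.24 in the windows that were higher with SMAD1/5, and 32.6% of these windows met the same rule in the inputs, against 11.2% of all windows. In the windows that were higher with SMAD2 the median input difference was -0.08, and 7.49% met the rule in the inputs in that direction, against 3.07% of all windows. Probe length moved with the difference too. The arrays use probes of 45 to 60 bases. The median difference was -0.57 in 45-base probes and 0.29 in 60-base probes. Probes of 60 bases were at the centre of 64.5% of the windows that were higher with SMAD1/5 and 22.5% of those that were higher with SMAD2, against 35.2% of all windows. The part of probe length and of the inputs in the calls was not tested.

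At start sites the difference between SMAD1/5 and SMAD2 was more negative than farther upstream, while the level of both was higher there. From 0 to 250 bp downstream of a start on array 1, the mean level was 0.52 with SMAD1/5 and 0.82 with SMAD2. At 2000 to 4000 bp upstream it was -0.29 and -0.10. On array 2 the levels were 0.28 and 0.80 downstream and -0.27 and -0.08 upstream. The mean difference was -0.38 in 37146 probes within 250 bp of a start site and -0.19 in 69766 probes 2000 to 4000 bp upstream. The 2 thus differed by -0.19 ± 0.0086 (SE over probes). That SE takes probes as independent, but the differences of neighbours within 250 bp correlated at 0.31 on array 1 and 0.37 on array 2. It is not the precision of the experiment. The step was -0.08 on array 1 and -0.30 on array 2, while the inputs stepped by 0.35 in the opposite direction. Among 45-base probes the step was 0.26, and among 60-base probes -0.10. With the median of each probe length removed, a setting chosen after the values were seen, it turned to 0.15. Start sites held 20060 probes of 45 bases and 4627 of 60 bases, and the upstream stretch 6474 and 31901.

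**Figure D1:**
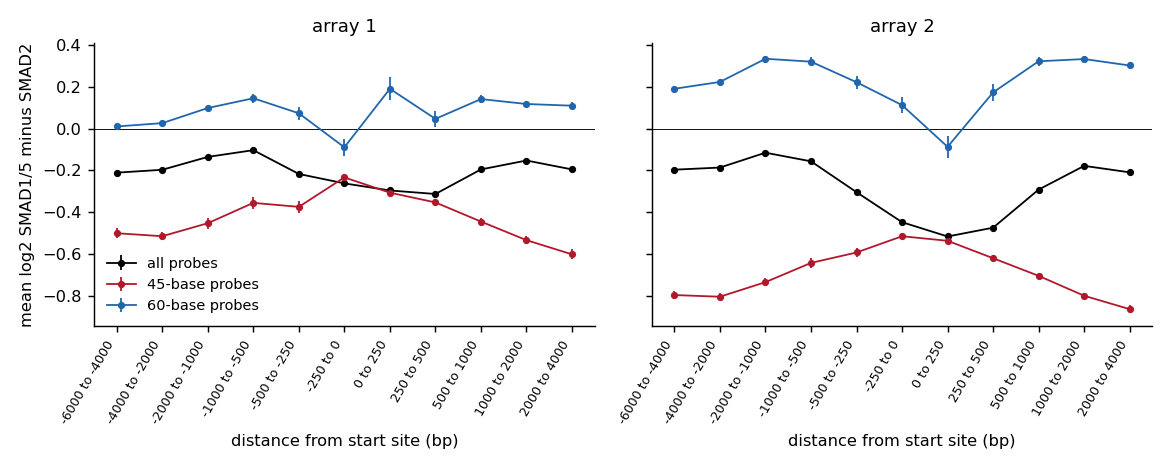
Mean log2 difference between the SMAD1/5 and SMAD2 immunoprecipitates (y axis) by distance from the start site in bp (x axis), for all probes and for probes of 45 and 60 bases, with array 1 and array 2 in separate panels and bars of 1 SE over probes. All probes together dip around the start, while the 45-base probes are least negative there on both arrays. The bars take probes as independent, although neighbours correlated.

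Start-site windows, centred within 500 bp of a start, were called for 3320 of 15389 genes (21.6%) as higher with SMAD2 and for 873 (5.67%) as higher with SMAD1/5. The genes of the TGF-beta superfamily and its targets, 122 genes on 6 lists, stood near these shares. Of 118 with such a window, 30 (25.4%) were higher with SMAD2 and 7 (5.93%) with SMAD1/5, and no gene had both. In 13 of these 37 windows the inputs differed by more than 1. They differed in the direction of the immunoprecipitates in 5 of the 7 windows that were higher with SMAD1/5 and in 2 of the 30 that were higher with SMAD2. In 6 of the 30 they differed in the opposite direction. Away from the start, several of these genes also had a called window on the opposite side. Bmp10, Dlx5 and Sox17 had one toward SMAD2. Smad1, Smurf2, Tgif1, Bmp8b, Chrdl1, Sostdc1, Tfap2a and Nodal had one toward SMAD1/5. Windows in both directions were present in 19.5% of all genes.

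Among the ligands, 11 of 33 genes (33.3%) had a start-site window that was higher with SMAD2 and 2 (6.06%) one that was higher with SMAD1/5. Nodal was measured at chr10:60935563-60936203, 105 bp upstream of the start. Its level was -0.64 with SMAD1/5, 0.62 with SMAD2 and 0.01 with SMAD4, a difference of -1.25 ± 0.59 over 4 probes with an input difference of 0.17. A second window of Nodal, centred 970 bp upstream, went the opposite way, with 1.27 for SMAD1/5 and -0.06 for SMAD2. That window had an input difference of 3.54. Gdf5, a ligand of cartilage and joint formation, was the farthest toward SMAD2 among the ligands, at -1.86 with SMAD1/5 and 0.84 with SMAD2 in 4 probes. Amh, the anti-Müllerian hormone gene, had -2.31 and -0.40, and Inha, which encodes the inhibin alpha subunit, 0.32 and 2.13, with input differences of -0.18 and 1.17. Bmp6, Bmp8a, Bmp8b, Bmp15, Gdf7, Gdf10 and Inhbe were the other ligand genes called toward SMAD2, with differences from -1.80 to -1.05. Their input differences ran from -0.20 at Inhbe to 2.59 at Gdf10, with 1.97 at Gdf7, 1.10 at Bmp8b and 1.01 at Bmp8a. In the direction of SMAD1/5, Bmp10 had 0.29 with SMAD1/5 and -1.21 with SMAD2, with an input difference of 1.01. Bmp3 had 2.39 and 0.98, and its input difference of 5.84 was larger than the difference between the immunoprecipitates.

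Of 15 receptor and co-receptor genes with a start-site window, 1 (6.67%) was called. That gene was Tdgf1, which encodes the Nodal co-receptor Cripto, with -1.75 for SMAD1/5 and -0.15 for SMAD2. Its input difference was -2.51, so the inputs differed in the same direction and by more. Away from the start, the receptor gene Bmpr1a had a window 2473 bp downstream with 1.34 for SMAD1/5 and -1.43 for SMAD2, a difference of 2.77 ± 0.82 over 3 probes. Only 1 of these probes had both inputs above background, and the input difference was 2.49. Over whole promoters the receptor genes ran from -0.88 for Tgfbr2, the TGF-beta type II receptor, to 0.76 for Bmpr1a, with a median of -0.21 over 17 genes.

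Among the SMADs and their nuclear partners, 5 of 20 genes (25.0%) were higher with SMAD2 at the start and 1 (5.00%) with SMAD1/5. Smad1, whose product is one of the proteins immunoprecipitated, had -1.93 with SMAD1/5, 0.13 with SMAD2 and -0.64 with SMAD4. The difference was -2.06 ± 0.91 over 4 probes, and the input difference -0.28. Foxh1, the forkhead partner of SMAD2 in the Nodal response, had -0.58 with SMAD1/5 and 1.12 with SMAD2. Ski and Skil encode related corepressors of SMAD proteins, and they were called in opposite directions. Ski had -0.97 with SMAD1/5 and 0.95 with SMAD2, a difference of -1.92 ± 0.53 over 5 probes with an input difference of 0.42. Skil had 2.28 with SMAD1/5 and 0.92 with SMAD2, a difference of 1.36 ± 1.24 over 3 probes with an input difference of 4.26. Tgif1, a homeobox corepressor, and Smurf2, a ubiquitin ligase for SMADs and receptors, differed by -1.13 and -1.20.

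Of 18 genes for secreted and membrane antagonists, 6 (33.3%) were higher with SMAD2 at the start and none with SMAD1/5. Chrd had -1.19 with SMAD1/5 and 0.06 with SMAD2. Chrdl1, which encodes a chordin-like protein, had -0.27 and 1.11. Sostdc1, which encodes an antagonist of BMP and WNT ligands, had -2.41 and -0.13. Fstl1 and Fstl3, of the follistatin family, differed by -1.48 and -1.70. Of these 6 windows the inputs differed by more than 1 only at Sostdc1, at -2.21, and at Fstl3, at 1.00. Among the other members, Nog, which encodes the BMP antagonist noggin, had a mean of -0.46 ± 0.93 over 6 probes within 500 bp of its start, and Fst, which encodes follistatin, 0.35 ± 0.59 over 6 probes.

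**Figure D2:**
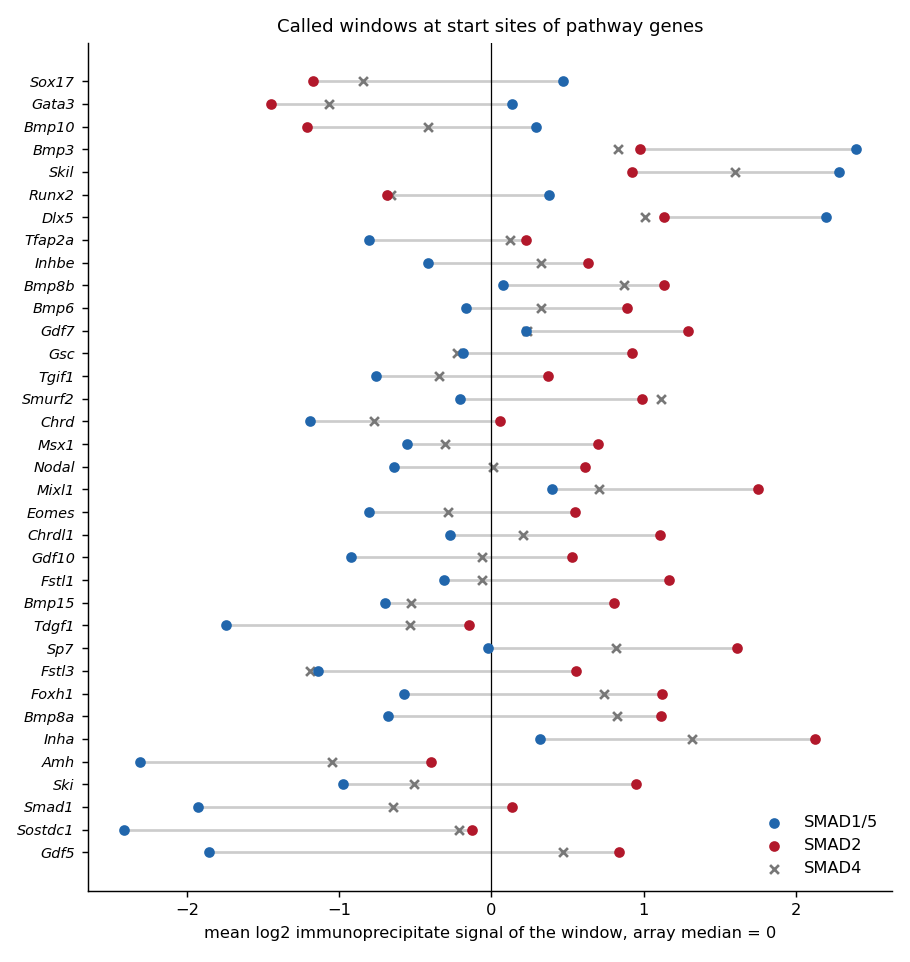
Mean log2 immunoprecipitate signal (x axis, 0 is the median of the array) in the called start-site windows of 35 of the 37 pathway genes (y axis), with 1 point for each antibody and a grey line joining SMAD1/5 and SMAD2. The 7 windows that were higher with SMAD1/5 are at the top, and SMAD4 is nearer to SMAD2 in 6 of these and in 15 of the other 28 plotted.

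The target genes of the 2 branches were counted at their start sites in the same way. Of 22 Activin, Nodal and TGF-beta targets, 8 (36.4%) were higher with SMAD2 and 2 (9.09%) with SMAD1/5, while of 26 BMP targets 3 (11.5%) were higher with SMAD2 and 3 (11.5%) with SMAD1/5. All genes stood at 21.6% and 5.67%. The counts are small and were not tested. Among the 8 were Nodal, Gsc, Mixl1, Eomes, Tdgf1, Ski and Tgif1. Eomes, a T-box gene of mesendoderm, had -0.81 with SMAD1/5, 0.55 with SMAD2 and -0.29 with SMAD4, a difference of -1.36 ± 0.32 over 5 probes with an input difference of 0.17. Mixl1, a homeobox gene of the primitive streak, had 0.40 and 1.75, and Gsc -0.19 and 0.92. Sox17, an endoderm gene, went the opposite way with 0.47 for SMAD1/5 and -1.17 for SMAD2. Only 1 of the 4 probes of its window had both inputs above background. The 4 probes within 500 bp of the Sox17 start had a mean difference of 0.07 ± 2.56.

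Among the BMP targets the 3 called toward SMAD1/5 were Dlx5, Gata3 and Runx2. Dlx5, a homeobox gene of the skeleton, had 2.20 with SMAD1/5 and 1.14 with SMAD2, a difference of 1.06 ± 0.67 over 3 probes with an input difference of 0.91. Gata3 had 0.14 and -1.45 with an input difference of 1.54, and 1 of its 3 probes had both inputs above background. Runx2, the osteoblast factor, had 0.38 and -0.68 with an input difference of 2.08. Those called toward SMAD2 were Msx1, Sp7 and Tfap2a. Sp7, another osteoblast factor, had -0.02 with SMAD1/5 and 1.62 with SMAD2, a difference of -1.64 ± 0.57 over 6 probes with an input difference of -0.002. Msx1, a homeobox gene, differed by -1.25 ± 0.15 over 3 probes in a window centred 493 bp downstream. The 4 probes within 500 bp of the Msx1 start had a mean of the opposite sign, 0.29 ± 1.04.

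The contrast between the 2 target lists changed with the processing. Toward SMAD2, the Activin, Nodal and TGF-beta targets stood at 31.8% against 15.5% of all genes after quantile normalization and 27.3% against 14.1% after lowess. They stood at 45.5% against 30.4% with ratios over input, where the BMP targets were at 46.2%. In the authors' log2 values they were at 13.6% against 15.6%, and the BMP targets at 34.6%. With the median of each probe length removed, 2 of 22 (9.09%) were called against 10.0% of all genes, and no BMP target was. Single genes also changed sides. With ratios over input Dlx5 and Runx2 were called toward SMAD2, and Runx2 was in the authors' values too. Tdgf1 was called toward SMAD1/5 with both. Sox17 stayed toward SMAD1/5 and Sp7 toward SMAD2 with both, and Gata3 stayed toward SMAD1/5 with ratios over input. Of the 8 targets above, only Gsc was still called toward SMAD2 in the authors' values.

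The Id genes encode helix-loop-helix inhibitors and are the classic targets of SMAD1/5. None of the 4 had a called window within 500 bp of its start. There, Id1 had a mean level of 0.14 with SMAD1/5 and 0.68 with SMAD2, a difference of -0.54 ± 1.34 over 4 probes. Id2 had 0.85 and 1.23, Id3 0.64 and 0.49, and Id4 0.41 and 0.75. The input differences over these probes were -0.70 at Id1, 0.12 at Id2, 3.25 at Id3 and -0.08 at Id4. Farther out, Id2 had a called window toward SMAD2, and Id1 had none in either direction. Id4 had windows in both directions, 1.19 ± 0.69 at 1481 bp upstream and -1.87 ± 1.03 at 699 bp downstream, with input differences of 0.53 and -0.86. Id3 had a window 4677 bp upstream with -3.40 for SMAD1/5 and -0.32 for SMAD2, over 3 probes of which 1 had both inputs above background. The inhibitory SMADs had -1.66 at Smad6, 1474 bp upstream, and both 1.37 ± 0.20 at 1795 bp upstream and -1.57 ± 1.18 at 2045 bp downstream of Smad7.

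Lefty1 and Lefty2 encode feedback inhibitors of Nodal. At the start of Lefty2 the levels were alike across antibodies, 1.27 with SMAD1/5, 1.10 with SMAD2 and 1.11 with SMAD4, in 3 probes. A window 4531 bp upstream had -0.53 with SMAD1/5, 1.31 with SMAD2 and 1.93 with SMAD4, a difference of -1.83 ± 1.23 over 4 probes. The inputs stood at 0.60 and 3.69, so the input difference of -3.08 had the same direction and was larger. Lefty1 had no called window, and its mean within 500 bp of the start was 1.46 with SMAD1/5 and 1.83 with SMAD2.

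Over whole promoters the 2 target lists lay at the level of all genes. The value of a gene is the mean difference over its probes. The median was -0.19 over 26 BMP targets, -0.15 over 22 Activin, Nodal and TGF-beta targets and -0.21 over all 16584 genes. Among all genes 102 (0.615%) had a mean of at least 1 and 641 (3.87%) one of at most -1. Of the 26 BMP targets, 13 were above the median gene, and of the 22 others 12. Windows that were higher with SMAD2 were present in 19 (73.1%) of the BMP targets and 17 (77.3%) of the others, against 58.7% of all genes. Windows that were higher with SMAD1/5 were present in 11 (42.3%) and 7 (31.8%), against 38.8%. Genes differ in their number of probes, and the part of that number in these shares was not tested. The Activin, Nodal and TGF-beta targets spread more widely, from -1.03 for Lefty2 and -0.96 for Fgf5, a growth factor gene, to 0.29 for Tgif1 and 0.82 for Skil. Their quartiles were -0.71 and -0.04, against -0.33 and 0.02 in the BMP targets. The latter ran from -0.95 for Cdx2, a trophectoderm factor, and -0.87 for Sp7 to 0.33 for Gata3 and 0.47 for Stat3, the mediator of leukemia inhibitory factor. In all 26 and 22 genes the distance from the median gene was smaller than the SD over the probes of the gene.

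**Figure D3:**
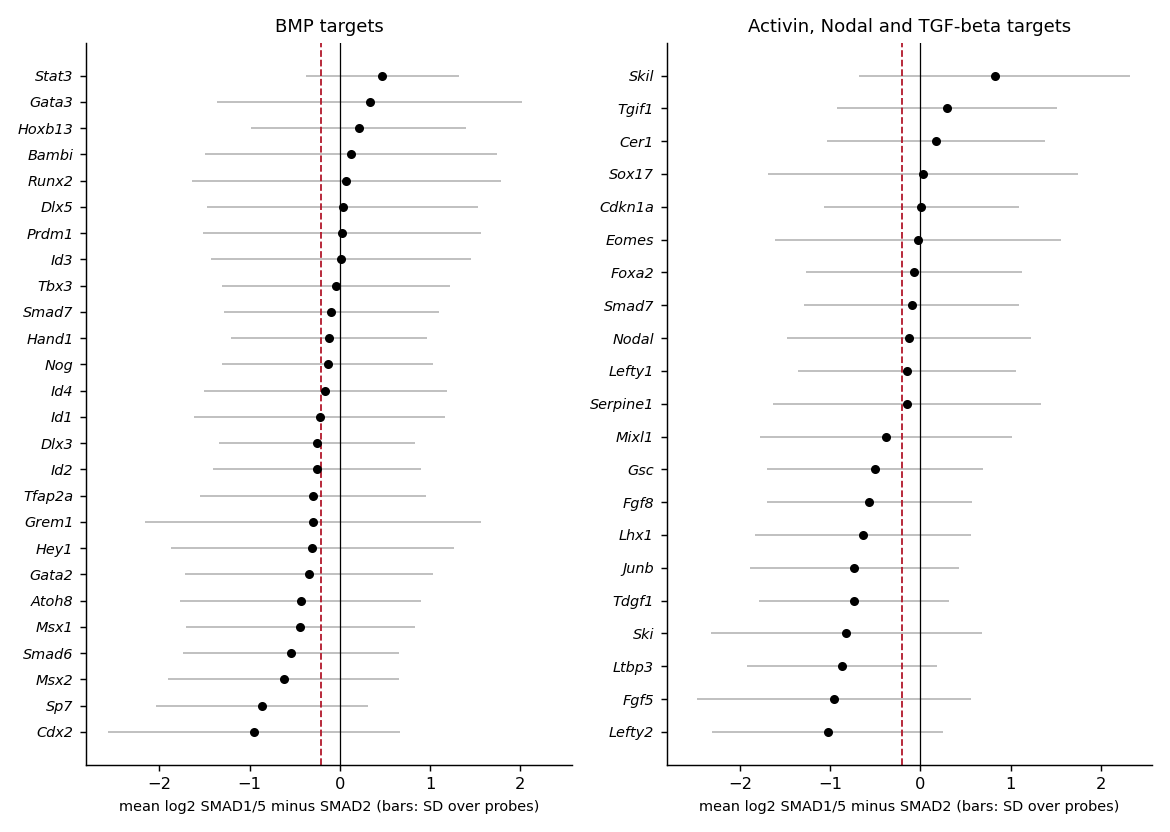
Mean log2 difference between SMAD1/5 and SMAD2 (x axis) over the probes of each gene (y axis) for 21 of 22 Activin, Nodal and TGF-beta targets (right) and all 26 BMP targets (left), with bars of 1 SD over probes. The dashed line is the median of all genes, -0.21, and both lists spread to either side of it.

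Across the 22 gene lists, histone genes stood highest and developmental lists lowest in these values, an order that changed with the processing. The median was 0.35 over 53 histone genes, of which 42 were above the median gene and 31 (58.5%) had a window that was higher with SMAD1/5, against 38.8% of all genes. H2ac8, a histone H2A gene, had the highest value of the list, 2.01 ± 0.51, from 3 probes, and H4c11, a histone H4 gene, the lowest, -1.02 ± 1.33. Histone genes are near-identical copies, so probes may report several of them. Olfactory receptor genes had a median of -0.01 over 839 genes, at a level of -0.89 with SMAD1/5, -0.95 with SMAD2 and -1.42 with SMAD4. The medians were -0.39 in 18 trophectoderm genes, -0.38 in 28 ectoderm and neural genes, -0.37 in 33 Hox genes, -0.37 in 26 mesoderm and endoderm genes and -0.32 in 33 genes of WNT, FGF and Notch signalling. In these 5 lists, windows that were higher with SMAD2 were present in 16 of 18, 25 of 28, 29 of 33, 18 of 26 and 29 of 33 genes, against 58.7% of all genes. A gene with more probes has more windows that can be called, and the part of probe number in these counts was not tested. For windows within 500 bp of the start the shares were 22.2%, 22.2%, 15.2%, 20.0% and 27.3%, against 21.6%. The 5 lists had windows that were higher with SMAD1/5 in 27.8%, 35.7%, 48.5%, 34.6% and 24.2% of genes, against 38.8% of all genes. Their lowest members were Sox7, an endoderm factor gene (-1.24), Fgf3, a growth factor gene (-1.21), Hes5, a Notch target (-1.11), Wnt5a, a WNT ligand gene (-1.09), and Sox3, a neural progenitor gene (-1.09). The highest was Hoxa10 (0.52). Pluripotency genes had a median of -0.04 over 27 genes, from -0.74 for Utf1 to 0.47 for Fbxo15. Chromatin regulators ran from -1.29 for Phf1 to 0.86 for Suz12 and 0.83 for Rnf2, all encoding Polycomb proteins. Relative to the median of all genes, histone genes were at 0.55, but at 0.26 within 1000 bp of the start, 0.20 in the authors' log2 values, 0.10 with the median of each probe length removed and -0.03 with normexp. Olfactory receptors lay above them after lowess, at 0.45 against 0.42, and in the authors' values, at 0.34. With probe length removed, the SMADs and nuclear partners (0.27) and pluripotency genes (0.21) lay above them. The SMADs and nuclear partners were above all genes by 0.06 to 0.32 in the 12 settings that could change a gene mean. Pluripotency genes were above all genes in the same 12, by 0.02 to 0.24. The mesoderm and endoderm, ectoderm and neural, and WNT, FGF and Notch lists were below all genes in these 12 settings, by as little as -0.02 for mesoderm and endoderm with the median of each probe length removed. With that setting the trophectoderm list was at 0.01 and olfactory receptors at -0.08, and with normexp the Hox genes were at 0.01. Ribosomal protein genes had a median of -0.22 over 83 genes, keratin genes -0.30 over 74 and housekeeping genes -0.17 over 18.

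**Figure D4:**
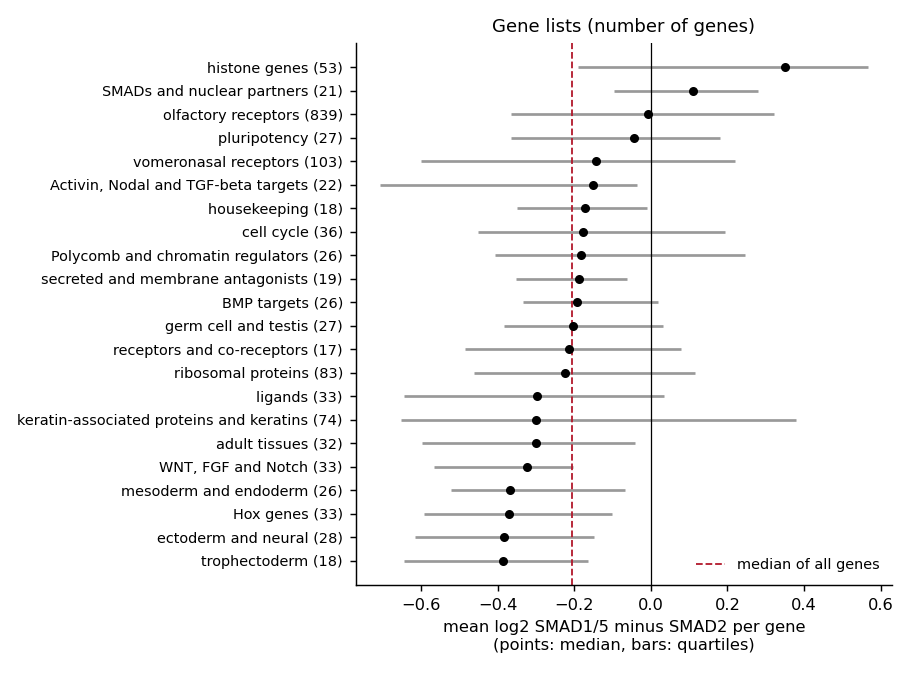
Median over genes of the mean log2 difference between SMAD1/5 and SMAD2 (x axis) for 22 gene lists (y axis, number of genes in brackets), with bars from the lower to the upper quartile of the genes. The dashed line is the median of all genes, -0.21, and the quartile bars cross it in all lists except the histone genes and the SMADs and nuclear partners, which lie above it; with normexp, not plotted, the histone median was -0.03 relative to all genes.

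The windows with the largest differences lay away from start sites and on few probes. Toward SMAD1/5 the 12 leading genes were Psip1, Metap1d, Atm, Cysltr1, Nectin3, Txndc15, Tchhl1, Mpzl1, Ptdss2, Tmem167, Trit1 and Cxcl9, with means from 4.07 down to 3.20. At Psip1, which encodes a chromatin-binding transcription coactivator, the level was 1.99 with SMAD1/5 and -2.08 with SMAD2, over 3 probes 4982 bp upstream of the start. The inputs differed there by 9.02, from 6.72 to -2.29, more than the immunoprecipitates did. Input differences over 4 were also measured at Metap1d, Atm, Txndc15, Tchhl1, Mpzl1, Ptdss2 and Tmem167. At Trit1, which encodes a tRNA-modifying enzyme, they were near: 1.72 with SMAD1/5 and -1.51 with SMAD2 gave 3.23 ± 0.91 over 5 probes 1616 bp downstream, while the inputs stood at 0.11 and -0.83. Toward SMAD2 the 12 leading genes included Neurod1, Gpr61, Tescl, Hsfy2, Hdac11, Rragd, Hmx3, Cyp2b9, Opcml, Paqr8 and Gchfr, with means from -4.36 to -3.82, all on array 1. At Neurod1, a neuronal transcription factor gene, the 3 probes ran from -9.34 to -1.08, and their SD of 4.38 was as large as the mean. At Cyp2b9 the probes ran from -10.41 to -0.35, with an SD of 5.59 around a mean of -3.96. Those of Hdac11 ran from -8.01 to -1.56. Gpr61, an orphan receptor gene, had 3 concordant probes, from -4.74 to -3.88, with -3.59 for SMAD1/5 and 0.60 for SMAD2 and an input difference of -2.16. Over these 12 windows the SMAD1/5 level ran from -4.19 to -1.96 and the SMAD2 level from -0.37 to 2.31.

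Windows with near-equal inputs gave a smaller set. The rule, chosen after the values were seen, asked for at least 5 probes, both inputs above background in each and an input difference under 1. It left 45617 windows, of which 772 (1.69%) were higher with SMAD1/5 and 6059 (13.3%) with SMAD2. The rule does not treat the 2 sides alike. An input difference under 1 was present in 40.6% of the windows called higher with SMAD1/5 and 75.5% of those with SMAD2. It was present in 63.8% of all windows. The part of the rule in the split was not tested. Toward SMAD1/5, Trit1 was followed by Tmx3, which encodes a thioredoxin-related protein, with 0.29 for SMAD1/5 and -2.38 for SMAD2. Tsc22d1, a TGF-beta-stimulated clone gene, had 0.97 and -1.31, a difference of 2.28 ± 0.40 over 5 probes with an input difference of 0.18. Toward SMAD2, Slitrk4 led with -2.99 for SMAD1/5 and 0.13 for SMAD2, a difference of -3.12 ± 0.71 over 5 probes. Lgals9, which encodes galectin-9, had -1.90 and 1.09 over 7 probes centred 217 bp upstream of its start, and SMAD4 stood at 0.92. Thrb, a thyroid hormone receptor gene, had -2.39 and 0.43 at 186 bp downstream with inputs that differed by 0.02, but its probes ran from -4.33 to -0.19.

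The difference also varied by chromosome. The X chromosome had the lowest median on array 2, -0.58 over 12993 probes, where the autosomes lay between -0.40 and -0.07. Chromosome Y, with 148 probes, and the mitochondrial genome, with 43, were at 0.22 and 1.84 and are left out of the orders given here. The level on X was -0.74 with SMAD1/5, -0.57 with SMAD2 and -1.004 with SMAD4, and its input difference of 0.16 was like that of chromosome 11 (0.17). Windows on X were higher with SMAD2 in 17.95% of cases and with SMAD1/5 in 3.12%, against 11.9% and 4.96% on the array. Among 60-base probes X was at -0.11, against 0.34 to 0.58 on the autosomes of array 2. X was below the autosomes of array 2 in 9 of 11 settings, and lay at -0.06 in the authors' log2 values and -0.11 after lowess, where some autosomes were lower. Chromosome 8 had the highest median of array 1, 0.02 over 21360 probes, where the others lay between -0.22 and -0.04. Its level was raised with all 3 antibodies, at 0.50, 0.37 and 0.52. In normexp-corrected values chromosome 8 was instead the lowest of array 1, at 0.05, where the others lay between 0.08 and 0.39. Chromosome 11 was raised likewise, at 0.44, 0.42 and 0.59, with a difference of -0.15, with 2 autosomes of array 2 above it.

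**Figure D5:**
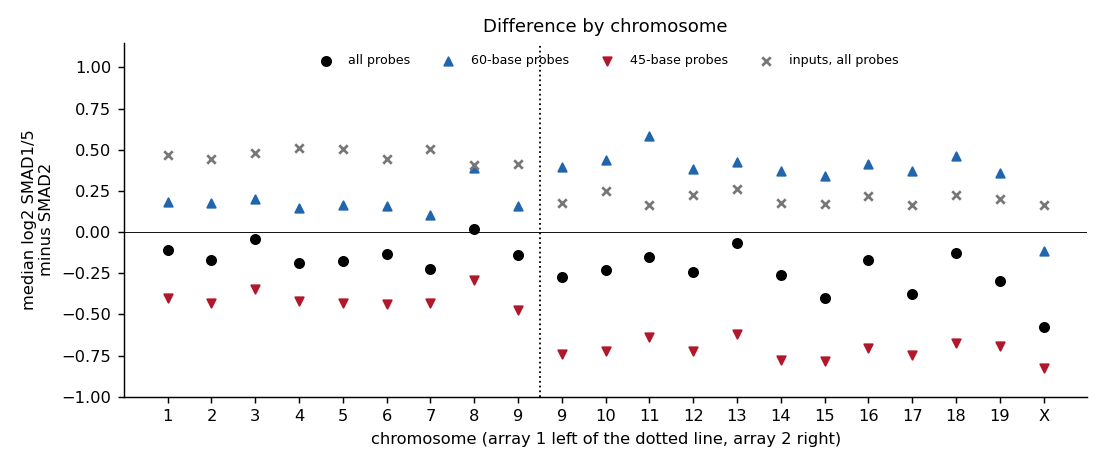
Median log2 difference between SMAD1/5 and SMAD2 (y axis) by chromosome (x axis), for all probes and for probes of 45 and 60 bases, with the difference between the inputs. Chromosome 9 is split between the arrays, and Y and the mitochondrial genome are not plotted. X lies lowest of those plotted on array 2 among all probes (-0.58) and 60-base probes (-0.11), while its inputs (0.16) lie with those of the other chromosomes.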

How the data were processed

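DNA from 3 chromatin immunoprecipitates and their whole cell extract inputs was measured on 2 Agilent array designs. The values used are the deposited Feature Extraction 9.1.3.1 processed signal intensities of the authors (protocol CGH-v4_91), background-subtracted and dye-normalized per the file headers; the SMAD4 arrays were read with version 9.5.3.1. Flags for outliers, saturation and signal above background (other columns) are as deposited, per the file headers. The deposited log2 values, for which the submitters' processing notes name limma, served as an alternative; their scale and centring are not stated, and they correlated at 0.737 and 0.858 (SMAD1/5) and 0.940 and 0.935 (SMAD2) with the log2 red over green ratio.

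Probes that were controls, carried a red outlier flag on either array, or were not well above background in either red channel were left out. Log2 signals were centred on the array median and subtracted. Windows, genes and start sites were summarised as described in the report with Python 3.11.15, numpy 2.4.6, pandas 2.3.3 and statsmodels 0.14.6; normexp (offset 50) used limma 3.58.1 in R 4.3.3. The code of the window rule was run on simulated differences to check that added shifts were found in the right direction. The simulated noise was narrower than the spread of the data and independent between probes. The run therefore says nothing of false calls in the data. Genes were named through the accessions of the array annotation: 16104 names by accession, 359 by symbol, 208 by an older symbol, and 192 kept as in the files. Of 14521 genes with at least 3 probes near the start, 78.5% matched a RefSeq promoter, under the 80% required, so a comparison of promoter composition is void and none is given.

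Named genes are all members of the pathway lists, the 12 genes with the largest called window in each direction and the 2 highest and 2 lowest genes of each other list, from which examples are printed. A few members counted in the totals are not reported here by name or plotted. The members and lists were chosen with earlier results of these data known. With 1 array for each antibody and design, precision is limited by that number and no test was made.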

Additional observations from a re-analysis of the deposited data

How the results depend on the processing

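No result has a test, and leaving out a replicate was not possible with 1 array for each antibody and design. No paired analysis was possible because the result comes from no test and each antibody has 1 array per design. For the counts of genes, the alternatives with no background filter, only inputs above background, no saturated spots, quantile normalization, lowess, ratios over input, the authors' log2 values, windows of 250 bp and both centrings added after seeing the data moved neither count by over 1.5 times. Normexp lowered the genes that were higher with SMAD2 from 9600 to 1859. In some settings the genes called changed more than the counts did. Of the 6358 genes called for SMAD1/5 and the 9600 for SMAD2, 3417 and 5437 were also called in the authors' log2 values. With ratios over input 4256 and 6868 were, with normexp 3456 and 1662, and after quantile normalization 6320 and 7842. A minimum of 5 probes gave 2455 genes for SMAD1/5 and 5223 for SMAD2, and a log2 difference of 2 gave 1102 and 3137, since both rules ask for more. The step at start sites, -0.19, was -0.1178 with normexp, -0.2202 in the authors' values, -0.5319 with ratios over input, -0.2546 after quantile normalization, -0.2463 after lowess, -0.1553 with no background filter and -0.2110 with inputs above background; it turned to 0.1539 with the median of each probe length removed. The BMP list median, -0.19, turned to 0.1153 with normexp, 0.0562 with probe length removed and 0.0440 with the median difference set to 0; the Activin, Nodal and TGF-beta list median, -0.15, turned to 0.1180 with normexp and was -0.0129 with the median difference set to 0. These 3 settings also moved the median of all genes from -0.21 to 0.16, -0.07 and -0.02. Relative to it, the BMP list lay between -0.13 and 0.13 and the other list between -0.23 and 0.05 over the settings. The cause of these changes was not tested. Of the 24 genes with the largest windows, those called in the fewest settings were Rragd, in 7 of 10, and Paqr8, Ptdss2, Tmem167 and Txndc15, in 8. Apart from those of Tmem167 and Trit1, the largest windows of these 24 genes had 3 or 4 probes, too few for the minimum of 5. The signal of the SMAD1/5 arrays, 5.80 to 6.68 times background, limits how far a level below it could be measured.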
